A study of Mus musculus with 6 samples.

Results

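The genes described here encode the digestive machinery of the lysosome. The list holds 40 genes chosen by name for their function: 22 lysosomal hydrolases, cathepsins and a hydrolase activator, 12 subunits of the vacuolar proton pump (V-ATPase), 3 membrane proteins and 3 transcription factors of the MiT/TFE family. The choice was made with earlier results of these data known. Of the 40 genes, 37 were measured, each by 1 probe set, among 19505 named genes. Ctsd, Glb1 and Atp6v0c had no probe set with their symbol and were not analysed here. RNA came from RAW-D cells, a RAW264.7 mouse macrophage subclone that readily forms osteoclasts. The 4 groups were Lpin2 KO cells with LPS (2 arrays), WT cells with LPS (1 array), untreated Lpin2 KO cells (2 arrays) and untreated WT cells (1 array), with LPS given at 200 ng/mL for 4 h. Lpin2 encodes lipin2, a phosphatidate phosphatase, and LPS is a bacterial outer membrane component sensed by TLR4. The KO cells were clones #1 and #2, isolated after transfection with CRISPR/Cas9 KO and HDR plasmids and puromycin selection. For the WT cells no selection or cloning is stated, so loss of Lpin2 and the isolation of clones cannot be told apart. Throughout, pairs of KO values are in the order clone #1, clone #2.

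Lysosomes break down proteins, glycans and lipids with hydrolases that work at acid pH. The V-ATPase supplies the acid: its cytosolic V1 sector hydrolyses ATP and turns the membrane V0 sector, which carries protons into the lumen. TFEB, TFE3 and TFEC bind short E-box sites, and such sites lie in the promoters of many lysosomal genes. In macrophages the lysosome digests microbes and debris and prepares antigen, and in osteoclasts the same pump acidifies the pit that is resorbed.

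Values are log2 RMA signals, so a difference of 1 is a doubling, and signals of different genes cannot be ranked since each probe set has its own response. A signal was called dim where no array of a group exceeded the 95th percentile of its negative control probes (9.12 to 9.45), which 28.7% to 31.4% of genes did. Ctsh, Acp2, Tfeb and Tfec were dim on all 6 arrays. Lpin2 itself was dim on all 6 arrays and therefore does not check the genotypes. Of 14 macrophage markers, 9 to 11 exceeded the percentile on each array, with Mertk, Marco and Cd86 under it everywhere. Their mean signal was 12.53 and 12.42 in KO cells with LPS, 11.07 in WT cells with LPS, 12.25 and 12.08 in untreated KO cells and 10.99 in untreated WT cells. Lymphocyte, fibroblast and epithelial, and neutrophil and mast cell markers did not exceed it on any array. Of 6 dendritic cell markers Itgax did so in KO clone #1 with LPS. It was at 9.68 and 9.17 in KO cells with LPS, 5.66 in WT cells with LPS, 6.19 and 6.39 in untreated KO cells and 4.55 in untreated WT cells. Itgax passed between KO and WT cells in each treatment and with LPS in KO cells, the 1 of the 6 to do so. For the difference between the LPS responses of KO and WT cells 0 of the 6 passed. Cell cycle genes moved strongly: all 11 measured were lower under LPS in KO cells than in WT cells, with a mean signal of 10.98 and 11.33 against 14.31, and all 11 fell within KO cells on LPS treatment. Untreated, 1 of these 11 was lower in KO cells than in WT cells, and 7 had a lower LPS response in KO cells. Of all genes 6.66% were lower with LPS, 9.8% fell within KO cells, 2.14% were lower untreated and 1.86% had a lower response. Of the macrophage markers 5 (35.7%) were higher in KO cells than in WT cells in each treatment. Of all genes 4.62% were so with LPS and 2.16% untreated. What part the shifts of cell cycle genes and macrophage markers had in the differences given here was not tested.

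Lysosomal genes differed between KO and WT cells and, within KO cells, between LPS and no treatment. In KO cells 10 of 20 measured hydrolases fell with LPS and 0 rose, whereas 3 of 11 V-ATPase subunits rose and 0 fell. Adding Mcoln1, which fell, and Tfec, which rose, 15 of 37 members changed (40.5%), against 16.6% of all genes (9.8% lower and 6.84% higher). Untreated KO cells exceeded untreated WT cells in 4 of 37 members and fell below them in 0, against 4.31% of all genes (2.16% higher and 2.14% lower). With LPS, KO cells exceeded WT cells in 7 members and fell below them in 0, against 11.3% of all genes (4.62% higher and 6.66% lower). Of these 7, Naglu, Acp2 and Tfec were dim in both groups, and the other calls were pump subunits. Tfec, dim in every group, is also among the calls untreated and with LPS in KO cells. In WT cells LPS changed 0 of 37 members and 0% of all genes by limma's adjusted p, and 0 members and 658 of all genes at an unadjusted p under 0.05. The WT array with LPS was over 2-fold higher than the untreated WT array in 85 genes (0.436%) and over 2-fold lower in 59 (0.302%), none of them members. The shares of all genes include many dim genes, as 28.7% to 31.4% of genes exceeded the negative controls on an array. All measured members but Ctsh, Acp2, Tfeb and Tfec did so on at least 1 array. What part this had in the higher shares of members was not tested. In bulk RNA, fewer cells of a type and less RNA per cell cannot be told apart.

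The test rests on few arrays. Only the KO clones give a spread, with 2 residual degrees of freedom, so each WT array was taken to vary like a clone. An exact permutation of 1 WT against 2 KO arrays has no p below 0.333. Of the 15 members called with LPS in KO cells, 7 remained called without KO clone #1 with LPS, 10 without clone #2 with LPS, and 3 (Lgmn, Naglu and Tfec) without either untreated clone. Of the 4 called between untreated KO and WT cells, Naglu alone remained without either untreated clone, while 9 passed with the clone as a block. Of the 7 called with LPS, Naglu, Tfec, Atp6v0a1, Atp6v1d and Atp6v1e1 remained with each KO array left out in turn. With the clone as a block, p-values of KO against WT leave out the clone difference shared by both treatments. Per the labels, probes were summarised at gene level for untreated WT cells and at exon level for the other 5 arrays. All comparisons with untreated WT cells, including the LPS response of WT cells and the difference between responses, therefore cross the stated summaries, and what part this had was not tested. The comparisons also share arrays: the untreated KO arrays enter both KO against WT untreated and LPS against untreated in KO cells.

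The position of the clones against the WT array describes the same values array by array. Untreated, both clones lay above the WT array for 29 of 37 members (78.4%) and below it for 5 (13.5%), where 41.2% and 37% of all genes did. With LPS, both lay above for 26 (70.3%) and below for 8 (21.6%), where 38.4% and 40.1% of all genes did. Hydrolases had both clones above WT for 16 of 20 genes and below for 2 untreated, and above for 12 and below for 7 (35%) with LPS. Pump subunits had both clones above for 7 of 11 and below for 3 untreated, and above for 9 and below for 1 with LPS. By size alone, without a test, 6 members were over 2-fold higher and 0 over 2-fold lower in KO cells than in WT cells with LPS (5.39% and 6.94% of all genes), and 8 and 0 were so untreated (3.84% and 3.71%). LPS moved 2 members over 2-fold up and 3 down in KO cells (5.16% and 6.82% of all genes). Differences of KO minus WT were above 0 for 28 of 37 members with LPS and 30 untreated, where 49.7% and 53% of all genes were. Differences of LPS minus untreated were above 0 for 13 members in KO cells and 15 in WT cells, where 45.8% and 49.2% of all genes were. Within KO cells, both LPS arrays lay below both untreated arrays for 13 of 20 hydrolases and above for 3, and for pump subunits below for 2 of 11 and above for 6. Among all genes these shares were 31% and 24.4%.

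**Figure D1:**
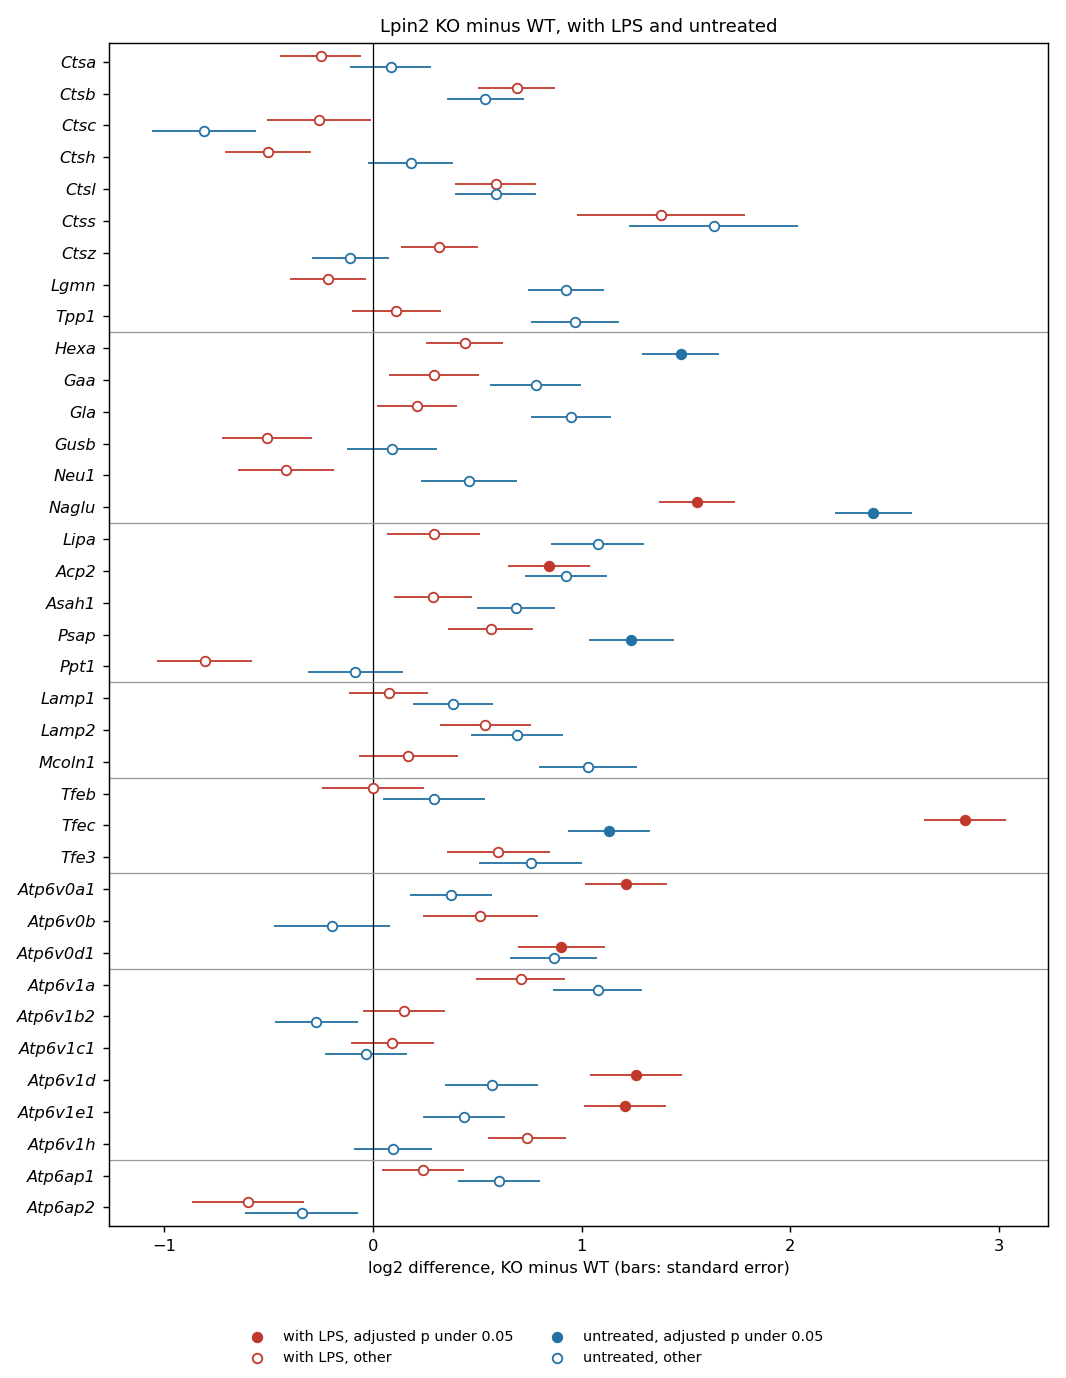
Log2 difference of Lpin2 KO minus WT (x axis, bars: standard error) for the 37 measured members (y axis, by role), with LPS and untreated. Filled points have an adjusted p under 0.05: 7 members with LPS and 4 untreated, all to the right of 0.

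Promoters of the members were searched for the E-box that MiT/TFE factors bind. RefSeq promoters of the GRCm38.p6 build, 250 bases before to 50 after a start site, were found for 34 of the 40 members. Ctsb, Ctsh, Asah1, Atp6v1b2, Atp6v1c1 and Atp6v1h had no entry. The core CACGTG was in 13 of the 34 genes (38.2%), where 8.09% of 27025 genes with a promoter held it. The longer form TCACGTG, which contains the core and was searched on both strands, was in 12 of 34 (35.3%), where 4.29% of genes held it. Counted over promoters, the longer form was in 28.6% of 42 member windows and in 3.77% of all 32851 windows. It was in 4 of the 10 genes with a window that fell with LPS in KO cells (Lgmn, Gla, Naglu and Mcoln1), in 0 of the 3 that rose, and in 6 of the 18 that were measured and did not pass. By role, it was in 7 of 19 hydrolases, 3 of 9 pump subunits, 2 of 3 membrane proteins and 0 of 3 factors. Matches are letters in a window and say nothing of binding.

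To show what these sites look like, stretches are printed 5′ to 3′ for 5 members with the longer form and 3 called members without it. Capitals mark TCACGTG as read on either strand, so CACGTGA is the same site on the other strand. The windows are chr11:101069994-101070093 (plus strand) for Naglu, chr8:3500419-3500518 (plus) for Mcoln1, chr12:102439093-102439192 (minus) for Lgmn, chr8:13159061-13159160 (plus) for Lamp1, chr9:59539440-59539539 (plus) for Hexa, chr10:60277528-60277627 (plus) for Psap and chr6:120822699-120822798 (minus) for Atp6v1e1. Each is the 100 bases before the start site. For Gla the window is chrX:134601156-134601255 (minus), at positions -250 to -151 from it. Lgmn has 2 promoter entries, of which the one with the match is shown, and Psap has 2, of which 1 is shown.
Naglu: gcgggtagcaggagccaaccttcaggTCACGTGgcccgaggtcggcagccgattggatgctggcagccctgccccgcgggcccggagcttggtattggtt
Mcoln1: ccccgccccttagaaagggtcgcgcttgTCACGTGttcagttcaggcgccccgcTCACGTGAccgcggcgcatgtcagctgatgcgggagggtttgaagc
Lgmn: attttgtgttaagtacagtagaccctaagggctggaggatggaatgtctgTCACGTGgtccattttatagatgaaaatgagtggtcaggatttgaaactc
Gla: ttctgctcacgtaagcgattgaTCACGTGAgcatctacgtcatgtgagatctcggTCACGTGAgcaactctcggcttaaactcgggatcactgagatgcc
Lamp1: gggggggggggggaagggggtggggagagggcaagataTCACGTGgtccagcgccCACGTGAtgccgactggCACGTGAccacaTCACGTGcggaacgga
Hexa: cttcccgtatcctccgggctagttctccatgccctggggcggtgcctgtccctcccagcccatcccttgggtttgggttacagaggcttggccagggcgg
Psap: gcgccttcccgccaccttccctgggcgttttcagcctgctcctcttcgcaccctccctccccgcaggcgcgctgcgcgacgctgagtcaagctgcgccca
Atp6v1e1: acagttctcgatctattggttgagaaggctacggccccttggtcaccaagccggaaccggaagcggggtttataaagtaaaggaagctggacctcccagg
Lamp1 held 4 matches between positions -61 and -10, the most of any member, and Mcoln1, Gla, Ctsa, Ctsd and Atp6v0b held 2 each. Lamp1 and Ctsa did not pass the test in any comparison, and neither did Atp6v0b.

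**Figure D2:**
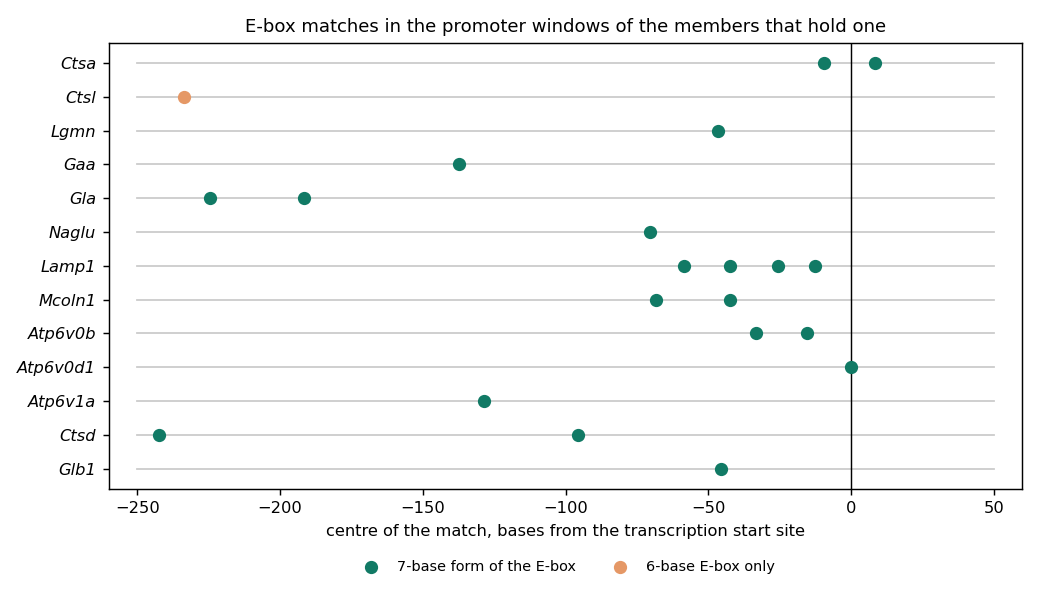
Position of each E-box match (x axis, bases from the transcription start site) in the windows of the 13 members that hold one (y axis). Green points are the 7-base form and orange points the 6-base core alone, which Ctsl held; grey lines span the window.

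Cathepsins and other lysosomal peptidases cut proteins, and 9 of 10 were measured. Lgmn and Tpp1 fell with LPS in KO cells, 2 of 9 where 9.8% of all genes fell, and 0 of the 9 passed between KO and WT cells in either treatment. Lgmn encodes legumain, an endopeptidase that cuts after asparagine and matures cathepsins. Its log2 signal was 14.71 and 14.71 in KO cells with LPS, 14.92 in WT cells with LPS, 16.07 and 16.08 in untreated KO cells and 15.15 in untreated WT cells. Untreated KO cells were the highest group and KO cells with LPS the lowest, without overlap. The difference of LPS minus untreated in KO cells was -1.37 (SE 0.15, adjusted p = 0.00276), the largest decrease among members above background in both groups. The difference between these responses, -1.14 (SE 0.26), did not pass (adjusted p = 0.0903), but did with dim probe sets left out or with an intensity trend (adjusted p = 0.0371 and 0.00862).

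Tpp1, a tripeptidyl peptidase whose loss in humans causes a neuronal ceroid lipofuscinosis, gave 14.52 and 14.81 in KO cells with LPS, 14.55 in WT cells with LPS, 15.56 and 15.67 in untreated KO cells and 14.65 in untreated WT cells. The untreated clones stood apart, and the other 4 arrays overlapped. Tpp1 fell by 0.95 with LPS in KO cells (SE 0.17, adjusted p = 0.0168). Untreated KO minus WT was 0.97 (SE 0.21, adjusted p = 0.0709). It passed with the clone as a block, with dim probe sets left out and with an intensity trend. The p-value with the block leaves out the clone difference shared by both treatments.

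Ctss encodes cathepsin S, which trims the invariant chain of MHC class II. Its signal was 14.30 and 13.41 in KO cells with LPS, 12.47 in WT cells with LPS, 14.31 and 13.84 in untreated KO cells and 12.44 in untreated WT cells. All 4 KO arrays exceeded both WT arrays, by 0.94 or more on the log2 scale, but the clones differed by 0.89 with LPS, more than for any other member. The KO minus WT difference was 1.38 (SE 0.40, adjusted p = 0.0926) with LPS and 1.63 (SE 0.40, adjusted p = 0.0933) untreated, and neither passed. With the clone as a block both passed (adjusted p = 0.00936 and 0.0103), but those p-values leave out the clone difference shared by both treatments. Without clone #2 with LPS the first difference was 1.83. Over the alternatives fitted with limma the difference ran from 0.94 to 1.83 with LPS and from 1.40 to 1.87 untreated. In most of them neither difference passed.

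Of the other peptidases, Ctsb and Ctsl, endopeptidases of bulk protein breakdown, had KO signals above WT on every array: Ctsb by 0.69 (SE 0.18, adjusted p = 0.0730) with LPS and 0.54 (adjusted p = 0.183) untreated, and Ctsl by 0.59 in both treatments (adjusted p = 0.128 with LPS and 0.172 untreated). Ctsc, which activates serine proteases of granules, ran the other way, with untreated KO cells at 14.50 and 14.04 and untreated WT cells at 15.08. Its difference was -0.81 (SE 0.25, adjusted p = 0.150). The carboxypeptidases Ctsa and Ctsz and the dim Ctsh did not pass in any comparison. Over the 9 peptidases the median KO minus WT difference was 0.11 with LPS and 0.54 untreated, where the median of all genes was -0.0028 and 0.03.

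**Figure D3:**
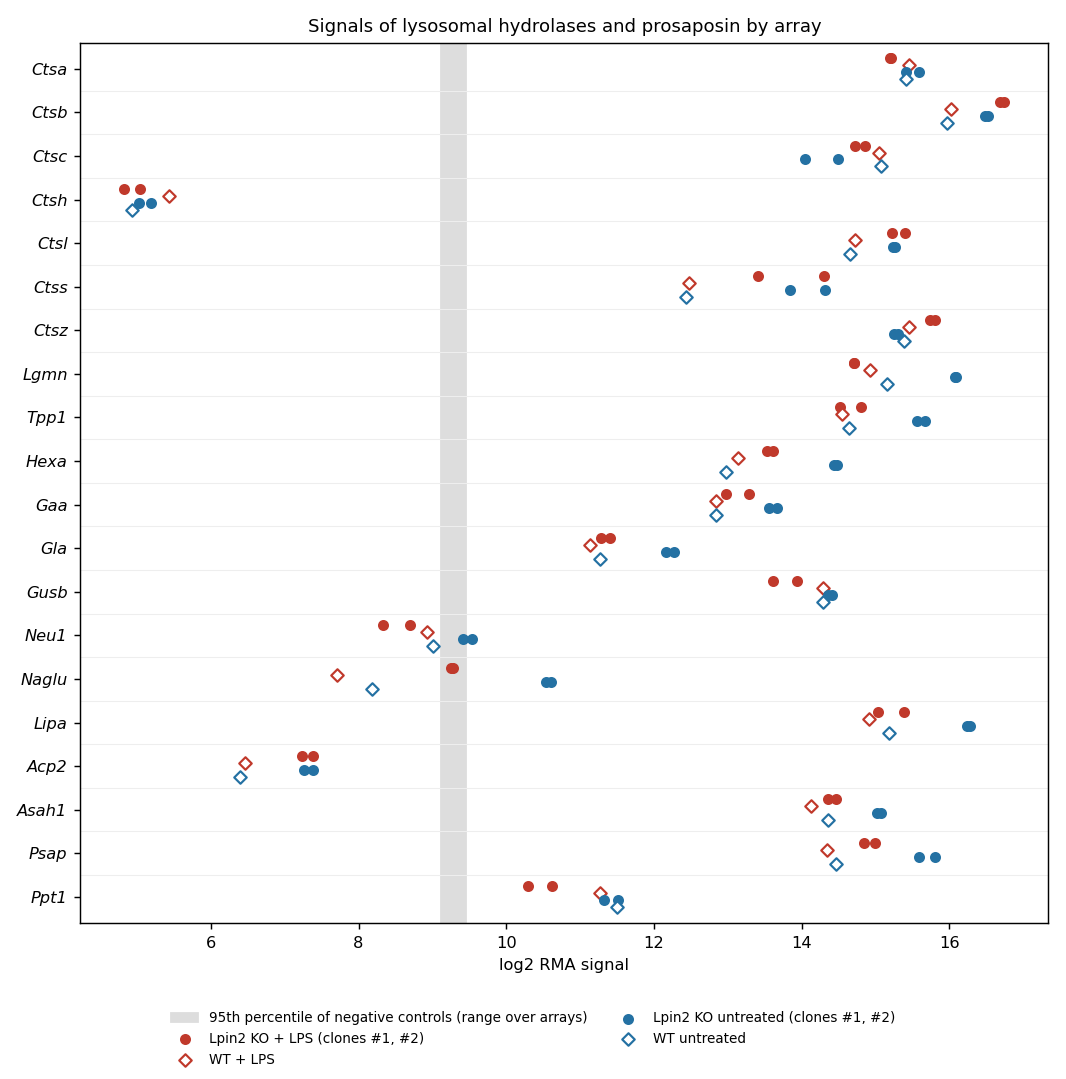
Log2 RMA signal (x axis) of the 20 measured hydrolases and prosaposin (y axis) on each of 6 arrays, with the range of the 95th percentile of negative controls shaded. For Lgmn, Tpp1, Hexa, Gla, Naglu, Lipa, Asah1 and Psap the untreated KO points lie to the right of all others.

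Glycosidases remove sugars from glycans and glycolipids, and 6 of 7 were measured. All 6 had negative differences of LPS minus untreated in KO cells (-1.31 to -0.49), and 4 of them fell, where 9.8% of all genes did: Naglu, Neu1, Hexa and Gla. Untreated, all 6 had positive KO minus WT differences, and Hexa and Naglu passed, where 2.16% of all genes were higher. Naglu encodes the enzyme that removes N-acetylglucosamine from heparan sulfate and whose loss in humans causes Sanfilippo syndrome type B. Its signal was 9.28 and 9.25 in KO cells with LPS, 7.71 in WT cells with LPS, 10.61 and 10.54 in untreated KO cells and 8.18 in untreated WT cells. The 3 levels did not overlap: untreated KO cells were highest, KO cells with LPS lower, and both WT arrays lowest.

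For Naglu only the untreated KO arrays were above the negative controls, so folds are bounds. Untreated KO cells exceeded untreated WT cells at least 2.58-fold (measured difference 2.40, SE 0.18, adjusted p = 0.00366) and KO cells with LPS were at least 2.21-fold lower than untreated KO cells (measured difference -1.31, SE 0.15, adjusted p = 0.00338). With LPS, KO minus WT was 1.55 (SE 0.18, adjusted p = 0.00543) between signals that were dim in both groups. Naglu passed in these 3 comparisons under each alternative fitted with limma. The bound takes the mean of the clones, and the adjusted p tests the measured signals.

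Hexa encodes the alpha subunit of beta-hexosaminidase, which degrades GM2 ganglioside and whose loss in humans causes Tay-Sachs disease. It gave 13.53 and 13.61 in KO cells with LPS, 13.13 in WT cells with LPS, 14.48 and 14.43 in untreated KO cells and 12.98 in untreated WT cells. The order was untreated KO, KO with LPS, then WT in either treatment, without overlap between KO and WT. Untreated KO minus WT was 1.48 (SE 0.18, adjusted p = 0.0164), and LPS minus untreated in KO cells was -0.88 (SE 0.15, adjusted p = 0.0137). The first lost its call without either untreated clone (adjusted p up to 0.0934), and the second without KO clone #1 in either treatment or untreated clone #2 (up to 0.0874).

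Gla, alpha-galactosidase A, the enzyme lost in Fabry disease, had 11.41 and 11.28 in KO cells with LPS, 11.13 in WT cells with LPS, 12.16 and 12.27 in untreated KO cells and 11.27 in untreated WT cells. The untreated clones were highest, and KO cells with LPS lay just above both WT arrays. Gla fell by 0.87 with LPS in KO cells (SE 0.16, adjusted p = 0.0158). Untreated KO minus WT, 0.95 (SE 0.19), did not pass (adjusted p = 0.0566). Neu1, a sialidase, gave 8.33 and 8.70 in KO cells with LPS, 8.93 in WT cells with LPS, 9.54 and 9.41 in untreated KO cells and 9.01 in untreated WT cells. KO cells with LPS were lowest and dim, at least 1.03-fold lower than untreated KO cells, of which clone #1 alone was above its negative controls (measured difference -0.96, SE 0.19, adjusted p = 0.0211). Gaa, which breaks down glycogen, had an untreated KO minus WT difference of 0.78 (SE 0.22, adjusted p = 0.122), and Gusb, beta-glucuronidase, an LPS difference in KO cells of -0.60 (SE 0.18, adjusted p = 0.0754).

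Enzymes of lipids and phosphate, with the activator precursor Psap, numbered 5, and 4 of them fell with LPS in KO cells, where 9.8% of all genes did. Lipa encodes lysosomal acid lipase, which frees cholesterol and fatty acids from esters. Its signal was 15.03 and 15.38 in KO cells with LPS, 14.91 in WT cells with LPS, 16.24 and 16.28 in untreated KO cells and 15.18 in untreated WT cells. The untreated clones were highest, and KO cells with LPS overlapped WT cells. Lipa fell by 1.05 with LPS in KO cells (SE 0.18, adjusted p = 0.0138), and untreated KO minus WT was 1.08 (SE 0.22, adjusted p = 0.0598).

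Psap encodes prosaposin, the precursor of the saposins that hand sphingolipids to their enzymes. It gave 14.84 and 14.99 in KO cells with LPS, 14.35 in WT cells with LPS, 15.81 and 15.60 in untreated KO cells and 14.46 in untreated WT cells. All KO arrays exceeded both WT arrays, and untreated KO cells exceeded KO cells with LPS. Untreated KO minus WT was 1.24 (SE 0.20, adjusted p = 0.0351), with LPS it was 0.57 (SE 0.20, adjusted p = 0.158), and LPS minus untreated in KO cells was -0.79 (SE 0.17, adjusted p = 0.0277).

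Asah1, acid ceramidase, had 14.36 and 14.47 in KO cells with LPS, 14.13 in WT cells with LPS, 15.08 and 15.02 in untreated KO cells and 14.36 in untreated WT cells. The untreated clones again stood above the other arrays, and Asah1 fell by 0.63 with LPS in KO cells (SE 0.15, adjusted p = 0.0419), a call lost with the clone as a block, with median centring and with any 1 of the 4 KO arrays left out (adjusted p up to 0.182). Ppt1, which removes palmitate from proteins and whose loss in humans causes infantile ceroid lipofuscinosis, differed in pattern. It gave 10.62 and 10.29 in KO cells with LPS, 11.26 in WT cells with LPS, 11.51 and 11.33 in untreated KO cells and 11.50 in untreated WT cells. Here KO cells with LPS were the low group and the other 3 groups lay together. LPS minus untreated in KO cells was -0.96 (SE 0.19, adjusted p = 0.0204), and KO minus WT with LPS was -0.81 (SE 0.23, adjusted p = 0.0848), below WT where most members were above. Acp2, lysosomal acid phosphatase, was dim throughout, at 7.23 and 7.39 in KO cells with LPS, 6.46 in WT cells with LPS, 7.38 and 7.26 in untreated KO cells and 6.39 in untreated WT cells. Its KO arrays exceeded its WT arrays by 0.84 with LPS (SE 0.20, adjusted p = 0.0485) and by 0.93 untreated (SE 0.20, adjusted p = 0.0637), signals too low for a fold. The call with LPS was kept in 3 of 11 alternatives fitted with limma. It was lost with the clone as a block, with any 1 of the 4 KO arrays left out, with median centring, with an intensity trend and with the 3 LPS arrays alone.

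Membrane proteins were Lamp1 and Lamp2, the heavily glycosylated proteins that line the lysosome, and Mcoln1, the calcium channel TRPML1. Mcoln1 gave 10.73 and 10.87 in KO cells with LPS, 10.63 in WT cells with LPS, 11.41 and 11.80 in untreated KO cells and 10.57 in untreated WT cells. The untreated clones were highest, and KO cells with LPS lay just above both WT arrays. Mcoln1 fell by 0.81 with LPS in KO cells (SE 0.19, adjusted p = 0.0414), and untreated KO minus WT was 1.03 (SE 0.24, adjusted p = 0.0787). Lamp2 had 15.77 and 15.43 in KO cells with LPS, 15.06 in WT cells with LPS, 15.98 and 15.93 in untreated KO cells and 15.26 in untreated WT cells. KO arrays exceeded WT arrays in both treatments, by 0.54 (SE 0.22, adjusted p = 0.206) with LPS and 0.69 (SE 0.22, adjusted p = 0.160) untreated, and neither passed, nor did Lamp1 in any comparison.

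V-ATPase subunits acidify the lumen in which these enzymes work. With LPS 4 of 11 measured subunits were higher in KO cells than in WT cells and 0 lower, where 4.62% of all genes were higher and 6.66% lower, with a median difference of 0.71. Untreated 0 of 11 passed, with a median of 0.37. At an unadjusted p under 0.05 by limma there were 4 of them, and 3904 of 19505 genes. Atp6v1a passed with the clone as a block (adjusted p = 0.0335), but that p-value leaves out the clone difference shared by both treatments. Atp6v0a1, the a1 isoform of the V0 subunit that forms the proton channels with the c ring, gave 12.61 and 12.67 in KO cells with LPS, 11.43 in WT cells with LPS, 12.06 and 11.87 in untreated KO cells and 11.59 in untreated WT cells. KO cells with LPS stood above all other arrays. The KO minus WT difference with LPS was 1.21 (SE 0.20, adjusted p = 0.0151), and LPS minus untreated in KO cells was 0.68 (SE 0.16, adjusted p = 0.0403). Atp6v0d1, which couples the V0 ring to the central stalk, had 13.54 and 13.73 in KO cells with LPS, 12.73 in WT cells with LPS, 13.49 and 13.69 in untreated KO cells and 12.72 in untreated WT cells. Its KO arrays lay above its WT arrays by a like amount in both treatments, 0.90 with LPS (SE 0.21, adjusted p = 0.0472) and 0.87 untreated (SE 0.21, adjusted p = 0.0875).

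In the V1 sector Atp6v1d and Atp6v1e1 were higher in KO cells than in WT cells with LPS. Atp6v1d, the central rotor shaft, gave 10.88 and 10.73 in KO cells with LPS, 9.54 in WT cells with LPS, 10.38 and 10.06 in untreated KO cells and 9.66 in untreated WT cells. Its KO arrays exceeded both WT arrays, those with LPS by the most, and KO minus WT with LPS was 1.26 (SE 0.22, adjusted p = 0.0202). Atp6v1e1, of the peripheral stalk that holds the catalytic head, had 13.09 and 13.25 in KO cells with LPS, 11.96 in WT cells with LPS, 12.23 and 12.10 in untreated KO cells and 11.72 in untreated WT cells. KO cells with LPS were 1.21 above WT cells with LPS (SE 0.20, adjusted p = 0.0153) and 1.01 above untreated KO cells (SE 0.16, adjusted p = 0.0108). Atp6v1h, which links ATP hydrolysis to proton transport, gave 13.17 and 13.25 in KO cells with LPS, 12.47 in WT cells with LPS, 12.35 and 12.45 in untreated KO cells and 12.30 in untreated WT cells. KO cells with LPS were again apart from the other 4 arrays, 0.81 above untreated KO cells (SE 0.15, adjusted p = 0.0189) and 0.74 above WT cells with LPS (SE 0.19, adjusted p = 0.0632).

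Not every subunit passed. Atp6v1a, the catalytic subunit, was 1.08 higher in untreated KO cells than in untreated WT cells (SE 0.21, adjusted p = 0.0539) and 0.71 higher with LPS (SE 0.21, adjusted p = 0.102). The untreated difference was the largest of the 11 subunits. It passed in some alternatives, among them quantile normalization repeated, dim probe sets left out and an intensity trend. Atp6v0b, of the c ring, had an LPS difference in KO cells of 0.63 (SE 0.23, adjusted p = 0.133), with untreated clones 0.58 apart. Atp6v1b2 and Atp6v1c1, of the head and a stalk, did not pass in any comparison. Nor did the accessory subunits: Atp6ap1 gave 12.72 and 12.92 in KO cells with LPS, 12.58 in WT cells with LPS, 13.21 and 13.18 in untreated KO cells and 12.59 in untreated WT cells, with the untreated clones highest. Atp6ap2, the prorenin receptor, gave 13.35 and 13.75 in KO cells with LPS, 14.15 in WT cells with LPS, 13.69 and 14.08 in untreated KO cells and 14.23 in untreated WT cells, with both WT arrays highest.

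**Figure D4:**
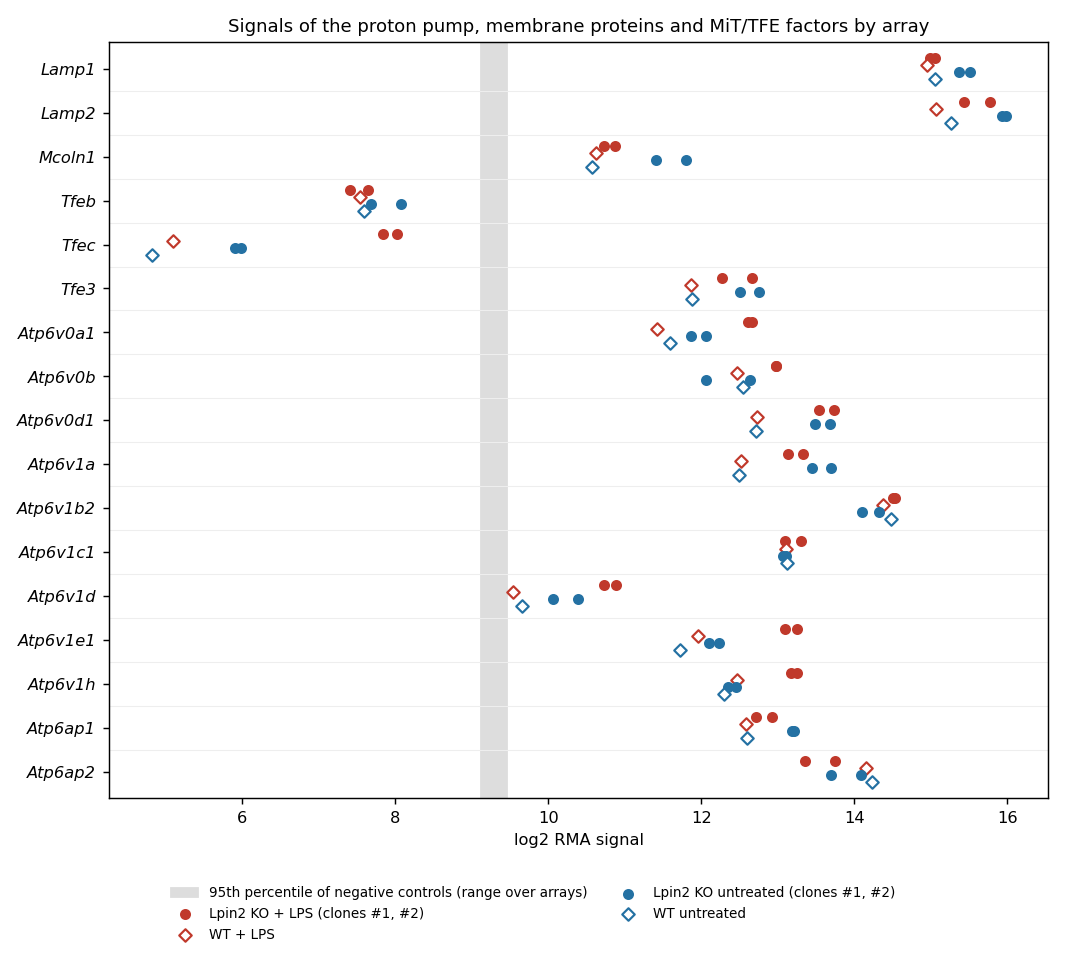
Log2 RMA signal (x axis) of 11 pump subunits, 3 membrane proteins and 3 MiT/TFE factors (y axis) on each of 6 arrays, with the range of the 95th percentile of negative controls shaded. KO cells with LPS are the highest group for Atp6v0a1, Atp6v1d, Atp6v1e1 and Atp6v1h, and Tfec lies in the dim range on all arrays.

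Of the 3 MiT/TFE factors in the list, Tfec passed the test, on dim signals, and Tfe3 and Tfeb did not. Its signal was 7.84 and 8.03 in KO cells with LPS, 5.10 in WT cells with LPS, 5.99 and 5.90 in untreated KO cells and 4.82 in untreated WT cells. KO arrays lay above WT arrays in both treatments and the LPS arrays above the untreated arrays in KO cells, without overlap, but all 6 were dim. KO minus WT was 2.84 with LPS (SE 0.20, adjusted p = 0.00116) and 1.13 untreated (SE 0.20, adjusted p = 0.0400), and LPS minus untreated in KO cells was 1.99 (SE 0.16, adjusted p = 0.00107). As both sides of each comparison were dim, no fold is given. Tfe3 was above the negative controls on all arrays, with KO minus WT differences of 0.60 (SE 0.25, adjusted p = 0.211) with LPS and 0.76 (SE 0.25, adjusted p = 0.170) untreated. Tfeb was dim and did not pass in any comparison.

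Set side by side, the LPS responses of KO and WT cells differed by the test for 1 of 37 members (2.7%), Tfec, against 3.29% of all genes (1.43% higher and 1.86% lower). The Tfec signals were dim on all 6 arrays, so only their measured difference can be given, 1.71 (SE 0.28, adjusted p = 0.0378), and the call was lost without either untreated clone (adjusted p up to 0.135). Over 2-fold, 1 member responded more and 2 less in KO cells, where 5.59% and 6.92% of all genes did. Among hydrolases 17 of 20 had a lower response in KO cells than in WT cells, with a median difference of -0.64, and 0 passed by limma (7 at an unadjusted p under 0.05). Among pump subunits 8 of 11 had a higher response in KO cells, with a median of 0.42, and 0 passed (2 at an unadjusted p under 0.05). Of all genes 46.2% had a higher response in KO cells, and their median was -0.04. At an unadjusted p under 0.05 by limma, 3261 of 19505 genes differed in response. The fall of hydrolases within KO cells was therefore not shown to differ from the response of WT cells, for which 1 array per treatment was available.

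**Figure D5:**
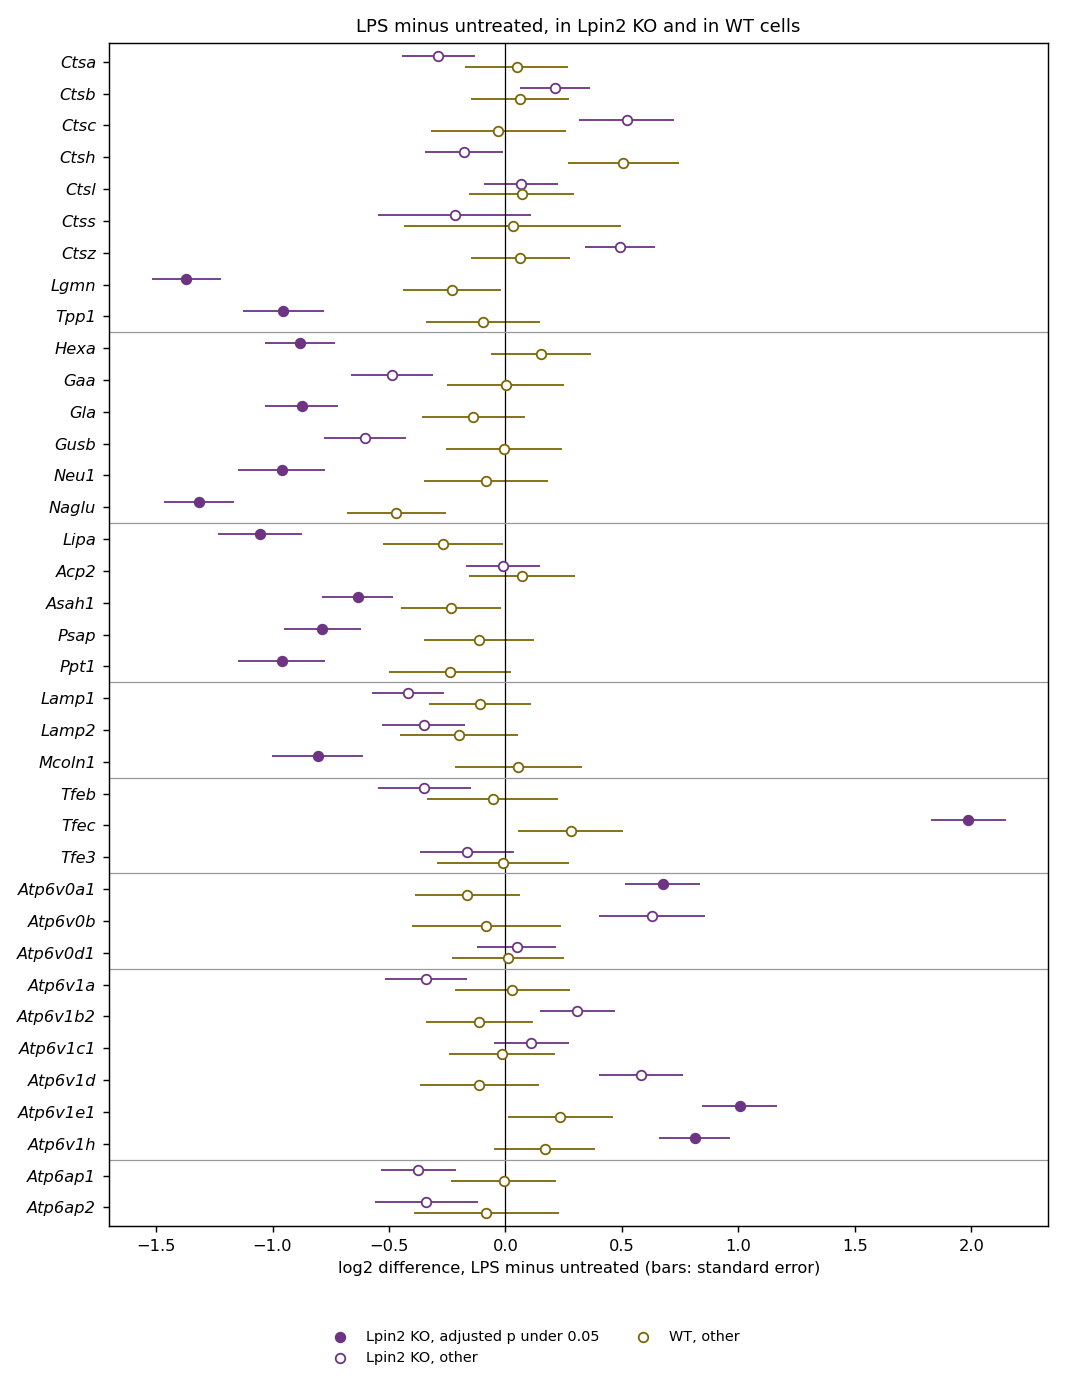
Log2 difference of LPS minus untreated (x axis, bars: standard error) in Lpin2 KO and in WT cells for the 37 measured members (y axis, by role). Filled points have an adjusted p under 0.05: 11 members left of 0 and 4 right of 0 in KO cells, and 0 in WT cells, where differences ran from -0.47 to 0.51.

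Lysosomal genes outside the list were counted by function, to be read against the 11.3% of all genes called between KO and WT cells with LPS, 4.31% untreated and 16.6% with LPS in KO cells. Of 17 measured other glycosidases, sulfatases and glycan enzymes, 8 were higher in untreated KO cells than in untreated WT cells, 4 were higher with LPS, 9 fell with LPS in KO cells, and 0 changed the other way. Man2b1, which trims mannose, was 2.44 higher in untreated KO cells (SE 0.27, adjusted p = 0.0111) and fell by 1.39 with LPS in KO cells (SE 0.22, adjusted p = 0.0109). The sulfatases Ids and Arsb were higher in KO cells in both treatments, by 1.31 and 1.09 with LPS (adjusted p = 0.0133 and 0.0365) and by 1.65 and 1.74 untreated (adjusted p = 0.0160 and 0.0191). Sgsh, which acts on heparan sulfate, fell with LPS in KO cells to a dim level, at least 1.07-fold lower (measured difference -3.56, adjusted p = 0.00188). Galc, which degrades galactosylceramide, passed in the same 3 comparisons as Naglu but was dim on all arrays.

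Of 14 other enzymes and activators of lipids, nucleic acids and phosphate, 4 were higher and 1 lower in KO cells with LPS, 3 were higher untreated, and LPS raised 3 and lowered 6 in KO cells. Smpdl3a, a phosphodiesterase of nucleotides, exceeded dim WT cells at least 5.38-fold with LPS (adjusted p = 0.00176) and at least 12.7-fold untreated (adjusted p = 0.00206), and fell by 1.33 with LPS in KO cells (adjusted p = 0.00741). Pld3, an exonuclease of endolysosomal nucleic acids, was 2.34 higher with LPS (adjusted p = 0.00179) and 1.32 higher untreated (adjusted p = 0.0264). The cholesterol carriers Npc2 and Npc1 were 1.55 and 1.29 higher with LPS (adjusted p = 0.00995 and 0.0222). Naaa, which hydrolyses acylethanolamides, was the lower one with LPS, dim KO cells lying at least 1.42-fold below WT cells (adjusted p = 0.00995).

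Among 32 other lysosomal membrane proteins and transporters, 5 were higher and 1 lower in KO cells with LPS, 4 were higher untreated, and LPS raised 3 and lowered 7 in KO cells. Slc15a3, a histidine and peptide transporter, gave 16.04 and 15.53 in KO cells with LPS, 13.46 in WT cells with LPS, 11.62 and 11.06 in untreated KO cells and 12.75 in untreated WT cells, and its KO arrays lay above WT with LPS and below WT untreated. LPS raised it by 4.44 in KO cells (SE 0.27, adjusted p = 0.000427). Tpcn1, an endolysosomal cation channel, gave 7.83 and 8.48 in KO cells with LPS, 11.30 in WT cells with LPS, 11.62 and 11.36 in untreated KO cells and 11.66 in untreated WT cells, and KO cells with LPS alone were dim, at least 3.63-fold lower than WT cells with LPS (adjusted p = 0.00304) and at least 4.15-fold lower than untreated KO cells (adjusted p = 0.000861). Slc11a1, the metal exporter of phagosomes, and Slc29a3, a nucleoside transporter, were 1.69 and 1.87 higher in KO cells with LPS (adjusted p = 0.00503 and 0.00692). Of 18 genes for mannose 6-phosphate tagging and sorting, 0 were higher and 1 lower with LPS, 0 passed untreated by limma (0 at an unadjusted p under 0.05), and 1 rose (Igf2r) and 2 fell (Gnptab and Vps16) with LPS in KO cells (5.56%, 0% and 16.7% of the list). Gnptab, which makes the mannose 6-phosphate tag, fell by 2.11 (SE 0.34, adjusted p = 0.0111).

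Of 21 other V-ATPase subunits and assembly factors, 2 were higher and 1 lower in KO cells with LPS, 1 was higher untreated, and LPS raised 4 and lowered 4 in KO cells. These are 14.3%, 4.76% and 38.1% of the list, the first 2 near the shares of all genes. Tcirg1, the a3 isoform of osteoclasts and of macrophage lysosomes, gave 14.89 and 14.75 in KO cells with LPS, 13.40 in WT cells with LPS, 14.02 and 13.84 in untreated KO cells and 13.37 in untreated WT cells. As for Atp6v0a1, KO cells with LPS were the highest group and untreated KO cells next, without overlap: KO minus WT with LPS was 1.42 (SE 0.20, adjusted p = 0.00930) and LPS minus untreated in KO cells 0.89 (SE 0.16, adjusted p = 0.0170). Atp6v0d2, the osteoclast form of the d subunit, gave 9.43 and 11.10 in KO cells with LPS, 11.99 in WT cells with LPS, 10.80 and 12.47 in untreated KO cells and 12.36 in untreated WT cells. The clones differed by 1.67 in each treatment, and no comparison passed. With the clone as a block 2 did: KO minus WT with LPS, -1.72 (SE 0.21, adjusted p = 0.00238), and LPS minus untreated in KO cells, -1.37 (SE 0.17, adjusted p = 0.00207). The first of these p-values leaves out the difference of 1.67 between the clones. The osteoclast protease gene Ctsk also split the clones in both treatments, at 12.41 and 10.88 in KO cells with LPS and 12.03 and 10.15 in untreated KO cells, around WT values of 11.87 with LPS and 11.82 untreated. Acp5, tartrate-resistant acid phosphatase, gave 13.62 and 14.63 in KO cells with LPS, 14.55 in WT cells with LPS, 12.26 and 12.78 in untreated KO cells and 14.35 in untreated WT cells. It rose by 1.61 with LPS in KO cells (SE 0.36, adjusted p = 0.0348), a call lost without either untreated clone. Untreated KO minus WT was -1.83 (adjusted p = 0.0911), which did not pass. It did in 5 of 12 alternatives fitted with limma, among them an intensity trend and the 3 untreated arrays alone. Of 8 osteoclast markers, Nfatc1, Dcstamp, Ocstamp and Tnfrsf11a exceeded the negative controls on every array. With LPS 1 of the 8 was higher and 2 lower in KO cells than in WT cells, 0 were higher and 1 lower untreated, and LPS raised 2 and lowered 1 in KO cells. In the last comparison Dcstamp, which cells need to fuse, rose by 1.91 (SE 0.29, adjusted p = 0.00885), Ocstamp rose by 1.23 (SE 0.26, adjusted p = 0.0270) and Tnfrsf11a, the receptor RANK, fell by 1.21 (SE 0.16, adjusted p = 0.00570). Their part in the pump and hydrolase differences was not tested.

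Of 24 genes for nutrient sensing and control of TFEB, 3 were higher and 1 lower in KO cells with LPS, 3 were higher untreated, and LPS raised 2 and lowered 3 in KO cells (16.7%, 12.5% and 20.8% of the list). Mitf, the remaining MiT/TFE factor, gave 14.16 and 14.25 in KO cells with LPS, 12.16 in WT cells with LPS, 13.66 and 14.03 in untreated KO cells and 12.00 in untreated WT cells. All KO arrays exceeded both WT arrays, by 2.05 with LPS (SE 0.23, adjusted p = 0.00450) and 1.84 untreated (SE 0.23, adjusted p = 0.0158). Ppp3ca, a catalytic subunit of calcineurin, the phosphatase that acts on TFEB and NFAT, had KO minus WT differences of -0.87 with LPS (adjusted p = 0.0441) and 1.29 untreated (adjusted p = 0.0285), and fell by 1.96 with LPS in KO cells (adjusted p = 0.00110). Fnip2, a partner of folliculin, rose by 2.04 with LPS in KO cells (adjusted p = 0.000868). Of 11 inhibitors of cathepsins, 1 passed with LPS and 1 untreated (9.09% each), where 11.3% and 4.31% of all genes did. With LPS 6 of the 11 had lower signals in KO cells than in WT cells, 2 of them over 2-fold without passing. Cstb was 1.12 higher in KO cells with LPS (adjusted p = 0.0153) and Cst3, cystatin C, 1.08 higher untreated (adjusted p = 0.0376). Of 10 other lysosomal proteases, 1 passed in each treatment (10%), with LPS near the share of all genes. This was Ctso, exceeding dim WT cells at least 1.21-fold with LPS (adjusted p = 0.0344) and at least 1.75-fold untreated (adjusted p = 0.0292).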

How the data were processed

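Total RNA of 6 RAW-D cultures was hybridised to Clariom S mouse arrays. The authors deposited log2 signals made with RMA in Expression Console (version not given in the sources used here). Per the labels, a gene-level summary was made for the untreated WT array and exon-level summaries for the other 5.

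Of 28846 rows, 19572 were gene probe sets with a symbol in the platform annotation. For 55 symbols with several, the probe set with the highest mean was kept, which left 19505 genes. Groups followed the labels. Groups were compared with limma 3.58.1 (R 4.3.3), with 1 mean per group, 2 residual and 3.83 prior degrees of freedom, two-sided, adjusted by Benjamini-Hochberg over all genes, with a threshold of 0.05. A dim group entered a fold as the mean of the higher of its signal and the 95th percentile of 5222 negative control probes per array. The number of arrays limits the precision, and p-values measure only the spread between these 2 clones.

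A clone number marks the same clone with and without LPS, and same-numbered arrays deviated together (correlation of deviations 0.222 across genes). An alternative fit therefore took the clone as a block. Values are from the fit without that block unless stated, so their KO arrays were not paired by clone. Alternatives were the block, leaving out single KO arrays, normalizations, filters, moderation, probe set rules, thresholds, fits of fewer arrays and the methods' t-test. Members and gene lists were chosen with earlier results of these data known. Described with values are the members that passed in any comparison, the member of each role group with the largest KO minus WT difference with LPS and with the largest LPS difference in KO cells, up to 5 genes that passed from each other list, and Tcirg1, Atp6v0d2, Ctsk and Acp5; single members named besides these were chosen after their values were seen. Motifs were searched with Python 3.11.15. The fit was tested on simulated data.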

Additional observations from a re-analysis of the deposited data

Results flagged for a closer look

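The LPS response of KO cells minus that of WT cells passed the test for 1 member and for 4 of the other lysosomal genes described above. For Tfec it was 1.71 (SE 0.28, adjusted p = 0.0378), higher in both clones, with signals that were dim on all 6 arrays. For the transporter gene Slc15a3 it was 3.73 (SE 0.46, adjusted p = 0.0179), and for Fnip2 it was 1.77 (SE 0.27, adjusted p = 0.0317). For the channel gene Tpcn1 it was -2.97 (SE 0.44, adjusted p = 0.0294), and for Ppp3ca it was -2.16 (SE 0.28, adjusted p = 0.0202). The WT response rests on 1 array per treatment. Without untreated clone #2 none of the 5 kept its call, and without untreated clone #1 Slc15a3 alone did. Over the alternatives the differences ran from 1.62 to 1.86 for Tfec, from 3.45 to 4.01 for Slc15a3, from 1.70 to 1.84 for Fnip2, from -3.30 to -2.65 for Tpcn1 and from -2.26 to -2.06 for Ppp3ca. Besides these 5, the response was lower in KO cells by the test for 1 of the 21 other V-ATPase subunits and assembly factors (4.76%). That gene is not described here.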

How the results depend on the processing

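Counts of members called were recomputed under each alternative. With LPS, KO against WT (7 members) gave 11 with an intensity trend and 11 at an adjusted p under 0.10, 0 by the methods' t-test after Benjamini-Hochberg, and 5 to 6 with one KO array left out. Untreated, KO against WT (4 members) gave 9 with the clone as a block, 7 with quantile normalization repeated, 10 with dim probe sets left out, 15 with an intensity trend, 7 with the 3 untreated arrays alone, 10 by the methods' t-test unadjusted and 0 after Benjamini-Hochberg, 13 at an adjusted p under 0.10, 8 over 2-fold, and 1 to 7 with one KO array left out. LPS against untreated in KO cells (15 members) gave 5 over 2-fold and 3 to 10 with one array left out. The difference between responses (1 member) gave 2 with dim probe sets left out, 3 with an intensity trend, 2 at an adjusted p under 0.10, 3 over 2-fold, and 0 to 1 with one array left out. With the clone as a block the other counts were 7 (Ctss in place of Acp2), 14, 0 and 1. Block p-values of KO against WT leave out the clone difference shared by both treatments. Leaving out an array also leaves 1 residual degree of freedom; for the other settings the cause was not tested.

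Of 2316 recomputed differences of 65 genes under 13 settings, 2063 kept direction and side of the threshold, 150 lost the call, 97 gained it and 6 reversed, all of Atp6v0d2 and Ctsk, whose clones differ. With one KO array left out, untreated KO minus WT ran from -1.56 to 0.11 for Atp6v0d2 (positive without untreated clone #1) and from -1.66 to 0.22 for Ctsk (positive without untreated clone #2). For Ctsk the LPS difference in KO cells ran from -0.39 to 1.496 and the difference between responses from -0.44 to 1.44. Both were negative without untreated clone #2 (-0.39 and -0.44) and without KO clone #1 with LPS (-0.21 and -0.26).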
